A study of Mus musculus with 61 samples.

Results

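Residual disease was measured in lacrimal glands of the male NOD mouse, a strain that develops autoimmune infiltration of its exocrine glands and serves as a model of Sjögren's syndrome. The comparison set 4 arrays of glands from mice given LTBR-Ig between weeks 8 and 16 of life against 4 arrays of glands from untreated mice of 8 weeks, the level at which treatment began, so 8 of the 61 arrays of the series were compared. LTBR-Ig is a soluble decoy in which the mouse lymphotoxin-beta receptor (LTBR) is fused to the constant part of a mouse IgG1. MOPC-21, a mouse IgG1 of no relevant specificity, was the control protein. Both were injected weekly into the peritoneum, while the week 8 mice had received nothing, so that age and treatment differ together between the 2 groups. Each array held RNA from the pair of lacrimal glands of 1 mouse, hybridised to an Affymetrix mouse chip, so the spread within a group is between mice. The 4 MOPC-21 arrays and the 4 untreated arrays of week 16 are given beside the comparison to show the level reached without LTBR-Ig. Every mouse was a male of the NOD strain, with no engineered allele.

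LTBR is carried by stromal, epithelial and myeloid cells, and its ligands, among them membrane lymphotoxin made from LTA and LTB, are carried by activated lymphocytes. In adult tissue the pathway keeps up the chemokines that place B and T cells in follicles, such as CXCL13, and the high endothelial venules (HEV) through which naive lymphocytes enter. Infiltrates that organise into B- and T-cell zones with follicular dendritic cells and HEV are called tertiary lymphoid tissue. In the lacrimal gland such infiltrates lie among acini that make tear proteins and ducts that carry them.

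Values are log2 expression after GCRMA, so that a difference of 1 is a 2-fold change, and a log2 value of 4 was taken as the floor of detection. A gene was called higher or lower where the limma difference was at least 1 log2 and the Benjamini-Hochberg adjusted p over all probe sets was under 0.05. A gene that was not called was counted as back at the week 8 level where all 8 arrays lay at or below the floor, or where the 95% confidence interval of its difference lay inside 1 log2 on either side ("within 2-fold"). That interval was not adjusted over genes. Every other gene was left undecided. Where every week 8 array lay at or below the floor, the fold was taken against the floor and is a lower bound, and likewise where every LTBR-Ig array did. The fitted log2 difference of such a gene, in LTBR-Ig or MOPC-21 glands, depends on values under the floor and is no bound. List medians are therefore also given with these genes at their bound. Where only some week 8 arrays lay at or below the floor, as in Ltb, Slpi, Vcam1 and Crisp3, their values were used as read. The fold and log2 difference of these genes thus also depend on values under the floor and are not exact.

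Of 10132 genes tested, 749 (7.39%) were higher than at week 8 after LTBR-Ig, 245 (2.42%) were lower, 7606 (75.1%) were within 2-fold, 217 (2.14%) were at the floor and 1315 were undecided. All 4 LTBR-Ig arrays lay above all 4 week 8 arrays in 15.3% of genes and below them in 25.7%. In MOPC-21 glands 1369 genes (13.5%) were higher than at week 8 and 580 (5.72%) were lower. The median difference over all genes was −0.09 log2 after LTBR-Ig and −0.08 after MOPC-21. Both contrasts share the 4 week 8 arrays, so their values are set side by side and their likeness is not used as a result. The named lists hold 339 tested genes. Of 148 immune genes tested, 108 were higher, 0 were lower, 8 were within 2-fold, 7 were at the floor and 25 were undecided, and at an unadjusted limma p under 0.05 the count of lower genes was also 0. Of 57 stromal genes, 4 were higher and 10 lower, with 23 within 2-fold, 2 at the floor and 18 undecided. Of 106 epithelial genes, 17 were higher and 8 lower, with 69 within 2-fold, 1 at the floor and 11 undecided. These names are labels of lists, and some genes are not confined to epithelium. Ctss, for example, is counted as both immune and epithelial.

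**Figure D1:**
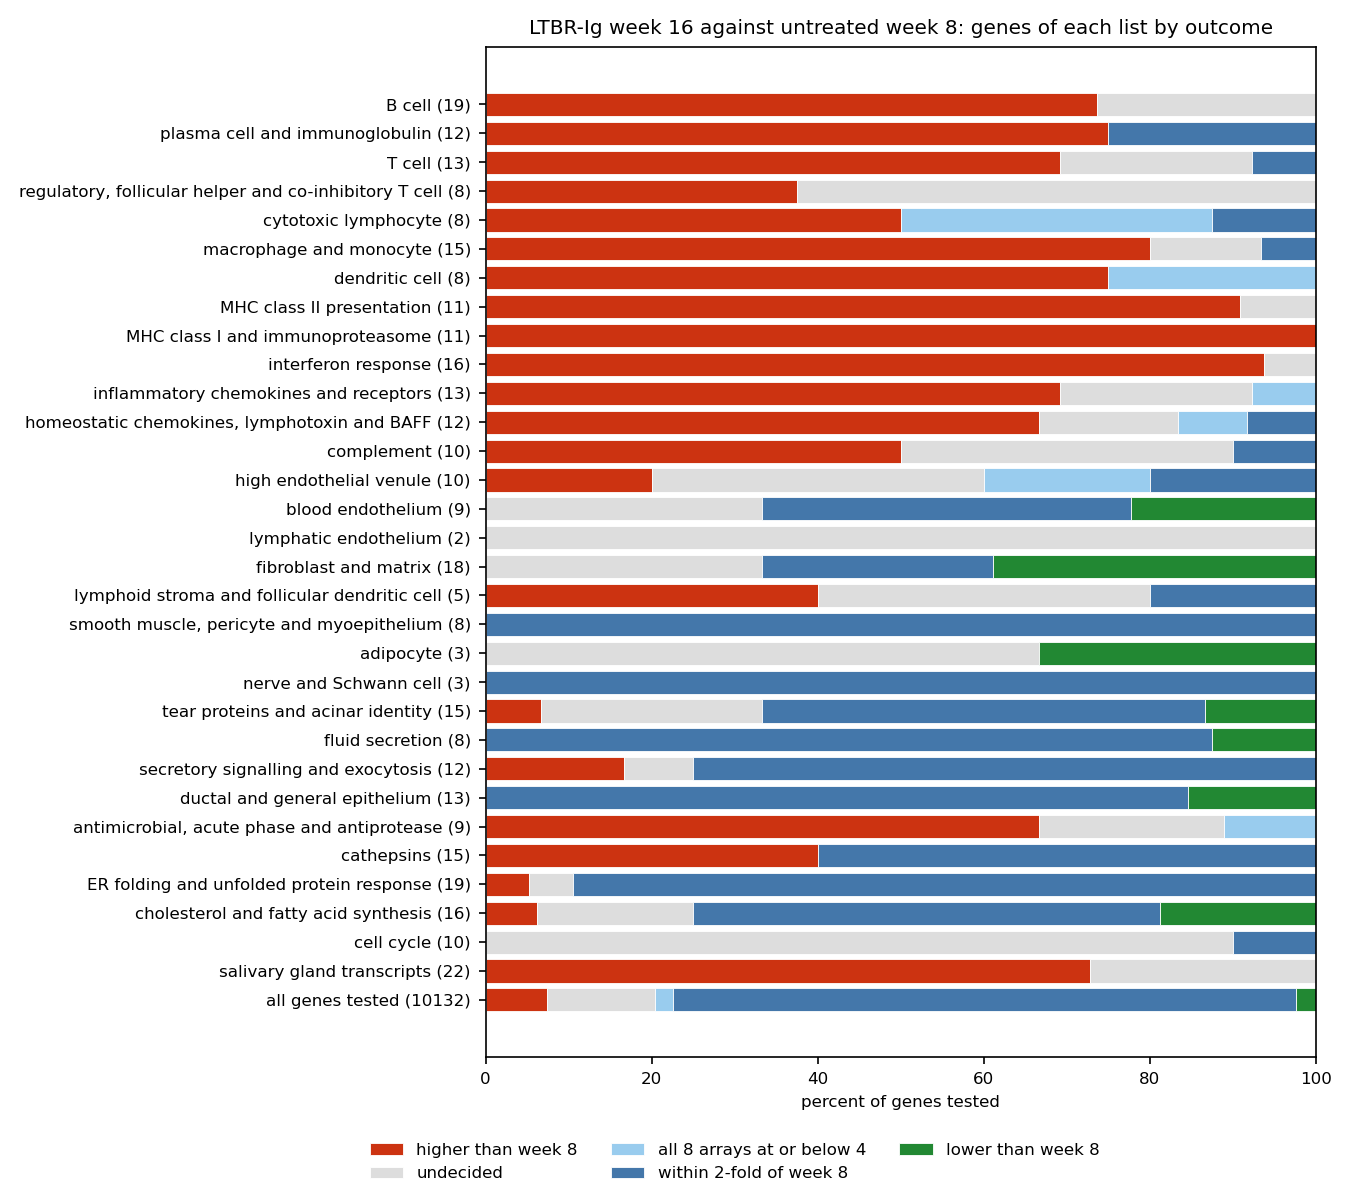
Share of each gene list, in percent of its tested members, that was higher than at week 8, lower, within 2-fold, at the floor or undecided in LTBR-Ig glands of week 16. Immune lists are mostly higher, with 108 of 148 immune genes, whereas 69 of 106 epithelial genes were within 2-fold, against 75.1% of all genes tested.

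The treated arrays were not alike. Pairwise correlations ranged from 0.958 to 0.985 among the LTBR-Ig arrays and from 0.986 to 0.991 among the week 8 arrays. In all 13 immune lists the LTBR-Ig array of replicate 1 was the highest of the 4 and that of replicate 3 the lowest. Amy1, salivary amylase, read 3.75, 3.15, 15.08 and 12.22 in LTBR-Ig replicates 1 to 4, against 3.24 to 3.74 at week 8. Thus replicates 3 and 4 carried a salivary transcript that the other 2 did not. Without the arrays in which Amy1 was above 8, which leaves 2 LTBR-Ig arrays, 1437 probe sets were higher and 661 lower than at week 8, against 1216 (6.06%) and 506 (2.52%) with all arrays. The difference between LTBR-Ig and MOPC-21 glands of week 16 depended more heavily on which arrays were fitted. Its count of lower probe sets, 1112 (5.54%) with all arrays, was 1577, 932, 290 and 741 without LTBR-Ig replicates 1, 2, 3 and 4 in turn. In alternatives chosen after seeing the data, it was 12 without the arrays with Amy1 above 8. When only the 8 arrays of these groups were fitted, it was 165. Of the genes tested 563 (5.56%) were lower than in MOPC-21 glands and 45 (0.444%) were higher. The Gapdh signal at the 3′ end minus that at the 5′ end was −0.80 to −0.55 log2 at week 8 and −0.62 to −0.42 after LTBR-Ig, and the same measure of Actb was 2.06 to 2.34 and 1.88 to 2.10. Lists of other tissues and cells were counted to check the label of the samples. The gland markers Lpo, Pip and Pigr were far above the floor in all 8 arrays, and none of the 9 skeletal muscle genes listed was above the filter. Whether these markers tell lacrimal from salivary gland was not tested. Of 22 salivary gland transcripts, 16 were higher after LTBR-Ig than at week 8, as described further on.

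**Figure D2:**
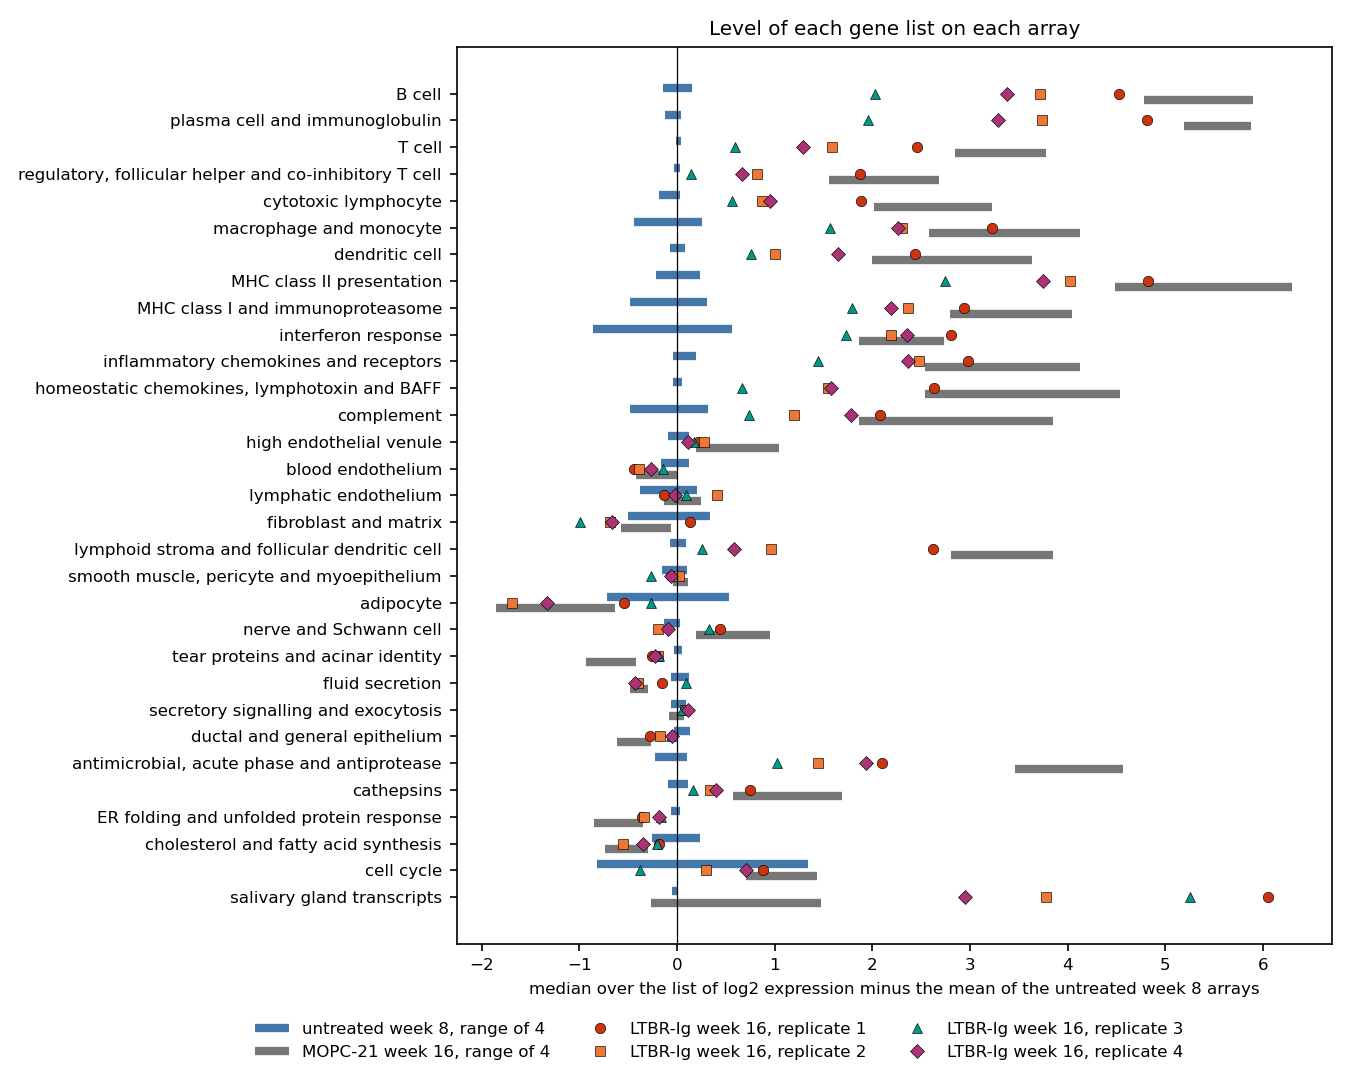
Median over each gene list of the log2 expression minus the week 8 mean, by array. Symbols are the 4 LTBR-Ig arrays, bars the range of the 4 week 8 and of the 4 MOPC-21 week 16 arrays. LTBR-Ig replicate 1 is the highest and replicate 3 the lowest in all 13 immune lists, and the salivary transcripts reach 6.05 in replicate 1.

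The promoters of 4 interferon-induced genes are shown because the interferon list, described further on, had nearly the same median difference from week 8 in LTBR-Ig and MOPC-21 glands. Each stretch is the 250 bases upstream of the first listed start in RefSeq (GRCm38.p6), written 5′ to 3′ on the strand of the gene, with the interferon-stimulated response element core GAAANNGAAA in capitals, in either orientation. They are Gbp2 (chr3:142620413-142620662, plus strand), Igtp (chr11:58199306-58199555, plus strand), Ifit3 (chr19:34583279-34583528, plus strand) and Rsad2 (chr12:26456453-26456702, minus strand).
Gbp2: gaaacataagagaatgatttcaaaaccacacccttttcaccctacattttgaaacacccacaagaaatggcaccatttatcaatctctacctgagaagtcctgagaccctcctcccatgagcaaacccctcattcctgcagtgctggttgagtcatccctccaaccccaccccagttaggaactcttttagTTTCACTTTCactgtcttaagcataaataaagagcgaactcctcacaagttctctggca
Igtp: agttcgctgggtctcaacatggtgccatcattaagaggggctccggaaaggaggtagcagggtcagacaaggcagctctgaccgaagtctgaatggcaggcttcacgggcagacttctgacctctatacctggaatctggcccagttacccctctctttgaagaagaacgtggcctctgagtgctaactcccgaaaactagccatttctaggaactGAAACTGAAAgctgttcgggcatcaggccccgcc
Ifit3: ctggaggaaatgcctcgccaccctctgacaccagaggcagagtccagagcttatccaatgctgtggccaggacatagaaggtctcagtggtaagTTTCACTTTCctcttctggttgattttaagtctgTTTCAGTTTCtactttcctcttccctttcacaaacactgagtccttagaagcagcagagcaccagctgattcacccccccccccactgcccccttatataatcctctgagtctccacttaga
Rsad2: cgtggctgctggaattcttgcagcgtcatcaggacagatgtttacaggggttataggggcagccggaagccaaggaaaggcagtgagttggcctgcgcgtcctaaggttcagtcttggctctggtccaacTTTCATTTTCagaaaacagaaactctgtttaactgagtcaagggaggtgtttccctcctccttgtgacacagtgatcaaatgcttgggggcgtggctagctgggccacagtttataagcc

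Of the 16 interferon genes tested, 13 were matched to a RefSeq promoter and 9 of these (69.2%) held the core, against 821 of all 27025 promoters of this length (3.04%) and 223 of 8238 genes tested (2.71%). The core was present in 44 of 580 genes that were higher than at week 8 (7.59%) and in 1 of 188 that were lower (0.532%). Besides the 4 genes shown, Stat2, Ifit1, Oas1a, Gbp3 and Irgm1 held it, and Irf1, Irf7, Ifit2 and Oasl2 did not within this window. A match describes the letters of the sequence and does not mark a site in use.

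The genes counted as back at the week 8 level were led by a product of HEV. Whether such genes rose under treatment and then fell again was not tested, so "back" names a level and not a course. Glycam1 encodes a mucin-like glycoprotein made by HEV. Its week 8 arrays read 3.04, 3.13, 2.98 and 3.17, the LTBR-Ig arrays 3.28, 3.19, 3.18 and 3.07, and the MOPC-21 arrays 7.10, 7.60, 9.19 and 8.25. All 8 arrays of the comparison lay below the floor and every MOPC-21 array lay above them. The LTBR-Ig glands were at least 16.4-fold lower than the MOPC-21 glands (−4.86 ± 0.38 log2, SE, adjusted p = 1.8e-08). Pla2g2d, a secreted phospholipase of lymphoid tissue, lay at 2.60 to 2.64 at week 8, 2.62 to 2.79 in treated glands and 5.53 to 7.29 in MOPC-21 glands, at least 4.2-fold lower with LTBR-Ig (adjusted p = 4.3e-05). Both differences from MOPC-21 kept their call without each LTBR-Ig array in turn and without the arrays with Amy1 above 8. Both genes passed the filter only through groups outside the comparison, and were named with their high MOPC-21 level known. The limma p-values and kept calls thus describe genes chosen for this difference and are no separate test of it.

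Reg3g, an antimicrobial lectin of epithelia, was at 2.41 to 2.45 at week 8, 2.43 to 2.58 in treated glands and 5.11 to 6.78 in MOPC-21 glands. The LTBR-Ig and MOPC-21 arrays of Reg3g did not overlap, and the difference of −3.21 ± 0.58 log2 had an adjusted p of 0.0042, which rose to 0.147 without the arrays with Amy1 above 8. Reg3g and the genes that follow were chosen in the same way, so their distance from MOPC-21 glands is no separate test either. The other 9 of the 12 genes that were highest in MOPC-21 glands among those back at week 8 were Slc2a3, Cst7, Prkcq, Csf2rb2, Clca3a2, Nemp2, Hal, Glipr2 and Dusp2, and in each of them all 8 arrays lay at or below the floor. Cst7 encodes an inhibitor of cysteine proteases in cytotoxic lymphocytes and Prkcq the kinase that couples the T-cell receptor to its targets.

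The lymphotoxin and homeostatic chemokine genes were mostly not back. Of 12 tested, 8 were higher, Ltbr was within 2-fold, Pla2g2d was at the floor, and Cxcr5 and Nfkb2 were undecided, with a median difference of 1.67 log2 against 3.44 in MOPC-21 glands (1.21 and 2.22 with genes at their bound). Cxcl13, the chemokine that draws B cells into follicles, read 4.55, 4.70, 3.88 and 5.35 at week 8 and 10.40, 9.21, 7.08 and 7.96 after LTBR-Ig. The 2 groups did not overlap, and LTBR-Ig glands were 16.5-fold higher (4.04 ± 0.65 log2, adjusted p = 2.7e-05). MOPC-21 glands read 11.13, 10.59, 12.12 and 10.71, above every LTBR-Ig array, a difference of 6.52 log2 from week 8. The direct difference between LTBR-Ig and MOPC-21 was −2.48 log2 (adjusted p = 0.013, and 0.0677 without LTBR-Ig replicate 3).

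Ltb, the membrane-anchoring subunit of the lymphotoxin ligand, followed the same order. It was 2.96, 4.12, 2.61 and 3.70 at week 8, and 8.39, 7.33, 6.15 and 7.16 after LTBR-Ig, with no overlap and a difference of 3.91 ± 0.53 log2 (adjusted p = 3.2e-06), against 5.73 log2 in MOPC-21 glands. The receptor gene Ltbr itself did not follow, at 6.76 to 7.19 at week 8 and 6.49 to 7.03 after LTBR-Ig (−0.27 log2, 95% interval −0.59 to 0.05). Tnfrsf13c, the receptor of the B-cell survival factor BAFF, was higher than at week 8 by 2.46 log2, against 4.65 with MOPC-21. Cxcr4, the receptor of CXCL12, was at least 2.44-fold higher, the BAFF gene Tnfsf13b at least 2.53-fold, and Relb, a transcription factor of the alternative NF-kB pathway, at least 2.3-fold, while Cxcl12 was higher by 1.22 log2.

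Cxcr5, the receptor of CXCL13 on B cells and follicular helper T cells, lay in between. It was 2.40 to 2.48 at week 8 and 4.96, 3.12, 2.57 and 2.85 after LTBR-Ig, so that only replicate 1 was above the floor, and its interval of −0.48 to 2.36 log2 left it undecided. MOPC-21 glands were higher than week 8 by 3.86 log2. Ccr7, the receptor that guides T cells and dendritic cells to lymphoid tissue, was at least 1.26-fold higher (adjusted p = 0.042), and this call was lost in 9 of the alternative settings, among them without LTBR-Ig replicate 1 and without replicate 4.

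**Figure D3:**
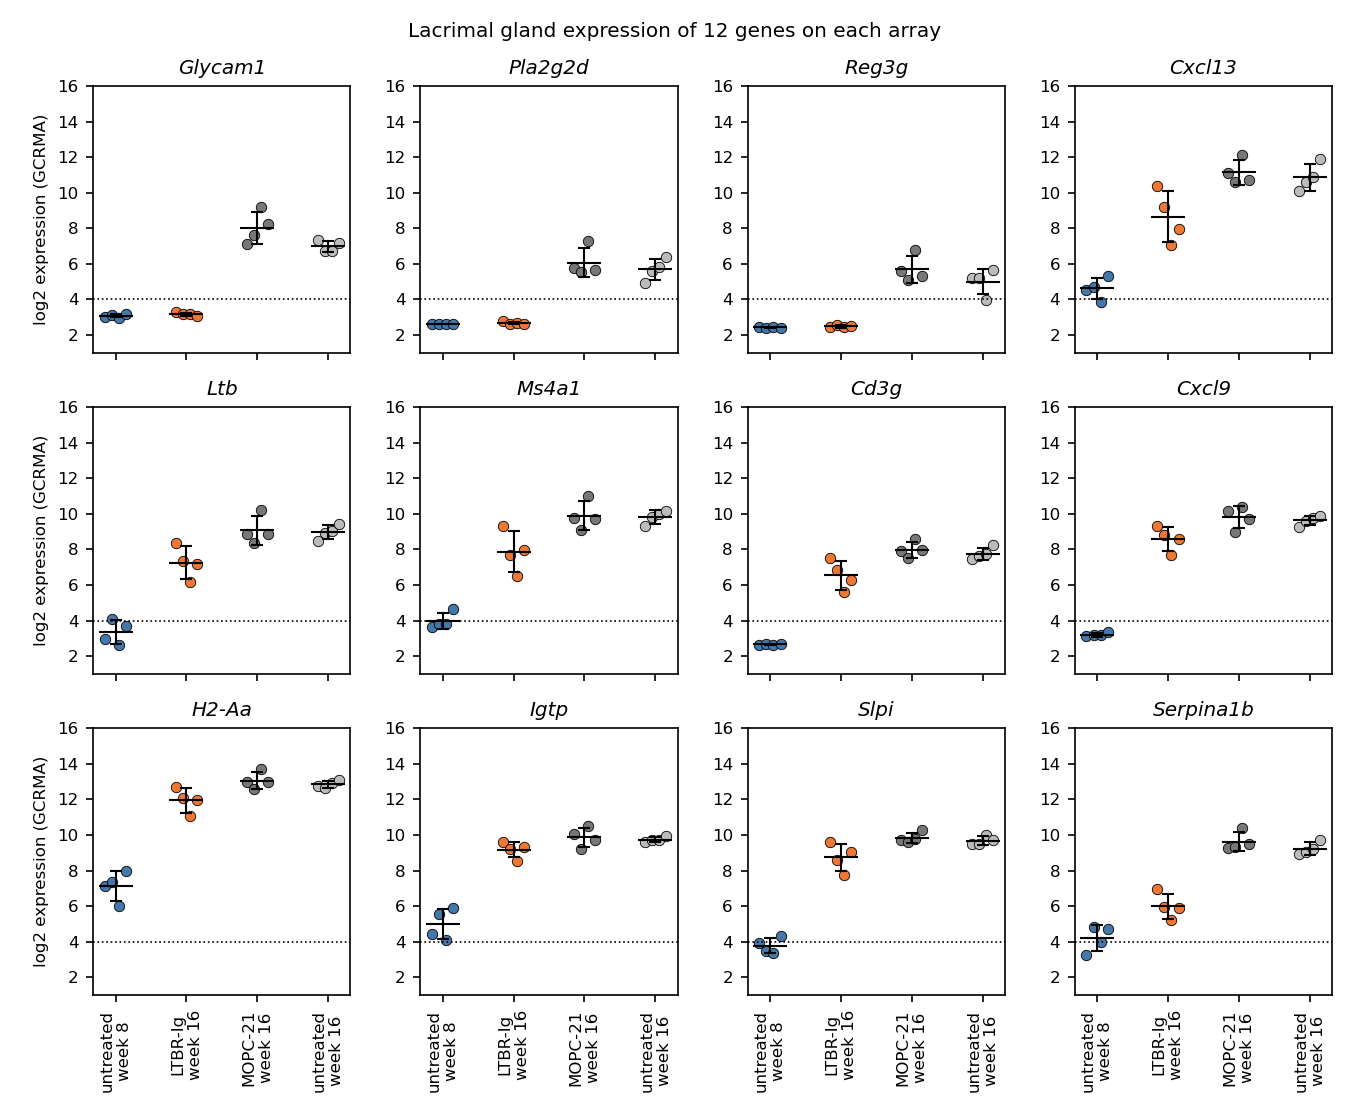
Log2 expression of 12 genes on each of the 4 arrays of untreated week 8, LTBR-Ig week 16, MOPC-21 week 16 and untreated week 16 glands. Points are arrays, bars the mean ± SD (n = 4), and the dotted line is the floor of 4. Glycam1 stays under 4 in all LTBR-Ig arrays, whereas Cxcl13 at 7.08 to 10.40 lies above every week 8 array.

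B-cell transcripts remained well above their week 8 level. Of 19 tested, 14 were higher, 5 were undecided and 0 were lower, also 0 lower at an unadjusted limma p under 0.05, and the median difference was 3.48 log2 against 5.30 in MOPC-21 glands (2.32 and 4.50 with genes at their bound). In bulk glands, more cells of a type and more RNA per cell cannot be told apart. By array the list stood 2.03 to 4.53 log2 above the week 8 mean in treated glands and 4.78 to 5.90 in MOPC-21 glands. At week 8, 13 of the 19 genes were at or below the floor in all 4 arrays, and after LTBR-Ig no gene was. Against MOPC-21 glands 18 of the 19 were lower in the limma test, and all 19 at an unadjusted p under 0.05. The count of limma calls was 19 without LTBR-Ig replicate 1 and 8 without replicate 3. It was 0 without the arrays with Amy1 above 8 or with only the 8 arrays of these groups fitted.

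Ms4a1, which encodes the B-cell surface protein CD20, read 3.64, 3.81, 3.79 and 4.65 at week 8 and 9.34, 7.69, 6.50 and 7.98 after LTBR-Ig. The groups were apart by 3.91 ± 0.56 log2 (adjusted p = 6.8e-06), and the MOPC-21 arrays read 9.78, 9.09, 11.01 and 9.69. Replicate 1 of LTBR-Ig lay within the MOPC-21 range, and the other 3 below it. Cd22, an inhibitory coreceptor, was at least 9.48-fold higher than at week 8, Btla, an inhibitory receptor of lymphocytes, at least 6.29-fold, and Cd37, a tetraspanin, at least 5.61-fold. Cd79b, a signalling chain of the B-cell receptor, was 17.6-fold higher. The undecided genes were Blk, Ebf1, Cr2, Btk and Cxcr5. Blk, a kinase of the B-cell receptor, read 5.95, 4.25, 2.77 and 3.27 after LTBR-Ig, and only in replicates 1 and 2 was it above the floor.

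Antibody transcripts were high after LTBR-Ig. Of 12 genes of the plasma cell and immunoglobulin list 9 were higher and 3 were within 2-fold. The median difference was 3.45 log2 against 5.55 in MOPC-21 glands (3.19 and 5.10 with genes at their bound). Treated arrays of the list, 1.96 to 4.81 log2 above the week 8 mean, all lay below the MOPC-21 arrays at 5.19 to 5.88. Against MOPC-21, limma called 5 genes lower and 0 higher, with 6 and 1 at an unadjusted p under 0.05. The count of genes called lower was 6 without LTBR-Ig replicate 1, 4 without replicate 3 and 0 without the arrays with Amy1 above 8. Ighm, the heavy chain of IgM, read 6.93, 6.54, 3.97 and 9.36 at week 8, 14.21, 13.86, 12.03 and 13.02 after LTBR-Ig, and 13.03, 12.77, 14.06 and 13.49 after MOPC-21. LTBR-Ig glands were 96.0-fold above week 8 (6.58 ± 0.65 log2, adjusted p = 1.9e-08) and overlapped with MOPC-21 glands. The difference between LTBR-Ig and MOPC-21 was −0.06 log2 (adjusted p = 0.96), and undecided, with an interval of −1.38 to 1.27. The week 8 arrays themselves spread over more than 5 log2.

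Jchain, the chain that joins IgA and IgM into polymers, was 6.20, 6.43, 3.59 and 7.39 at week 8 and 12.29, 12.17, 11.01 and 12.18 after LTBR-Ig, 64.5-fold higher (6.01 ± 0.43 log2, adjusted p = 6.7e-11), against 7.21 log2 in MOPC-21 glands. Igha, the IgA heavy chain, was 41.4-fold higher and differed by 5.37 log2 against 5.94. Mzb1, a chaperone of antibody assembly, was at least 11.3-fold higher and differed by 4.48 log2 against 6.40. Sdc1, Derl3 and Eaf2, which gland epithelium also expresses, were within 2-fold of week 8. Probe sets of antibody genes can share sequence, so single family members are uncertain.

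T-cell transcripts were also above their week 8 level. Of 13 tested, 9 were higher, Cd8a was within 2-fold and 3 were undecided, with a median of 1.59 log2 against 3.35 in MOPC-21 glands (0.44 and 2.20 with genes at their bound), and with all but 1 of the genes at the floor in every week 8 array. Cd3g, a chain of the T-cell receptor complex, read 2.63, 2.69, 2.65 and 2.68 at week 8 and 7.51, 6.83, 5.61 and 6.26 after LTBR-Ig. The groups were far apart, by at least 5.87-fold (3.89 ± 0.38 log2, adjusted p = 1.5e-08), and the MOPC-21 arrays lay at 7.49 to 8.58. Cd3d was at least 4.26-fold higher, Il7r, the receptor of the survival cytokine IL-7, at least 2.63-fold, and the costimulatory receptor Cd28 at least 2.58-fold. Cd3e was at least 1.21-fold higher (adjusted p = 0.0096), a call lost without LTBR-Ig replicate 1. The coreceptor Cd4 was 2.39 to 2.65 at week 8 and 4.71, 2.73, 2.64 and 2.94 after LTBR-Ig, and undecided. Cd8a read 3.21 to 3.41 and 3.27 to 4.36.

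Of 8 genes of regulatory, follicular helper and co-inhibitory T cells, Icos, Ctla4 and Pdcd1 were higher and 5 were undecided. Icos, a costimulator of follicular helper cells, read 5.35, 4.99, 2.28 and 4.12 after LTBR-Ig and at most 2.28 at week 8, so that replicate 3 alone remained at the week 8 level. The call of Pdcd1, an inhibitory receptor at least 1.24-fold higher than at week 8, was lost in 9 of the alternative settings. Of 8 cytotoxic genes, Ccl5, Klrd1, Nkg7 and Klrk1 were higher. Eomes was within 2-fold, and Gzma, Gzmk and Ncr1 were at the floor. The median difference of the cytotoxic list was 1.04 log2 against 2.60 in MOPC-21 glands (0.03 and 1.55 with genes at their bound). Against MOPC-21, 7 of the 8 were lower in the limma test. That count was 7 without LTBR-Ig replicate 1, 3 without replicate 3 and 0 without the arrays with Amy1 above 8. Ccl5, a chemokine of activated T and NK cells, read 2.85, 3.83, 2.47 and 2.86 at week 8 and 9.10, 8.32, 7.29 and 8.03 after LTBR-Ig. It was at least 18.2-fold higher (5.18 ± 0.42 log2, adjusted p = 8.1e-10), close in size to the 5.77 log2 of MOPC-21 glands, and the 2 week 16 groups overlapped. The granzyme genes Gzma and Gzmk stood at 2.83 to 3.54 at week 8 and 2.85 to 3.87 after LTBR-Ig. The call of the receptor gene Klrk1, whose mean of 3.65 after LTBR-Ig was itself below the floor, was lost in 7 of the alternative settings, among them without LTBR-Ig replicate 1.

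Macrophage transcripts were mostly above their week 8 level. Of 15 tested, 12 were higher, the mannose receptor Mrc1 was within 2-fold, and Cd14 and Itgam were undecided. The median difference was 2.35 log2 against 3.37 in MOPC-21 glands (2.35 and 2.50 with genes at their bound). The median of the direct differences from MOPC-21 was −0.80 log2. In the limma test 3 genes were lower than in MOPC-21 glands and 0 higher, and 8 were lower at an unadjusted p under 0.05. The count of genes called lower was 7 without LTBR-Ig replicate 1, 1 without replicate 3 and 0 without the arrays with Amy1 above 8. The complement C1q chains, made by tissue macrophages, were higher by 2.92 (C1qa), 2.70 (C1qb) and 3.24 log2 (C1qc). C1qa read 6.32, 6.79, 5.87 and 7.16 at week 8 and 10.37, 9.50, 8.62 and 9.34 after LTBR-Ig, a 7.58-fold difference (adjusted p = 1e-05) with no overlap. Adgre1, an adhesion receptor that marks mouse macrophages, was higher by 2.45 log2 in treated and by 2.36 in MOPC-21 glands, and Fcgr1, a high-affinity IgG receptor, by 2.46 and 2.48. For these 2 genes the interval of the difference between LTBR-Ig and MOPC-21 lay inside 2-fold, as for 78.6% of all genes, at 0.09 log2 (−0.64 to 0.82) and −0.02 log2 (−0.84 to 0.80). Mrc1 stood at 5.66 to 6.62 at week 8 and 5.91 to 6.87 after LTBR-Ig.

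Dendritic cell genes divided into 6 that were higher and 2, Flt3 and Zbtb46, at the floor. The median difference was 1.44 log2 against 2.93 in MOPC-21 glands (0.28 and 2.14 with genes at their bound). Against MOPC-21, 6 of the 8 were lower in the limma test. That count was 6 without LTBR-Ig replicate 1, 1 without replicate 3 and 0 without the arrays with Amy1 above 8. Flt3, a cytokine receptor of dendritic cell precursors, was below the floor on all 8 arrays and at 4.30 to 4.98 in MOPC-21 glands. Cd83, a marker of activated dendritic and B cells, was at least 5.24-fold higher, and Fscn1, an actin-bundling protein of mature dendritic cells, was higher by 2.79 log2. Itgax, which encodes CD11c, was at least 1.17-fold higher (adjusted p = 0.0096), a call lost without LTBR-Ig replicate 1.

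Antigen presentation genes were raised almost without exception. Of 11 MHC class II genes 10 were higher and Cd86 was undecided. H2-Aa, a class II alpha chain, read 7.13, 7.37, 6.01 and 7.99 at week 8 and 12.72, 12.08, 11.05 and 11.95 after LTBR-Ig, 28.4-fold higher (4.83 ± 0.38 log2, adjusted p = 3.5e-10), against 5.93 log2 in MOPC-21 glands. The direct difference from MOPC-21 was −1.10 log2 (adjusted p = 0.038, and 0.163 without LTBR-Ig replicate 3). Cd74, the invariant chain, was 22.3-fold and H2-Eb1 29.1-fold higher. Ciita, the master regulator of the class II genes, was at least 1.59-fold higher.

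All 11 genes of MHC class I presentation and the immunoproteasome were higher, with a median of 2.32 log2 against 3.32 in MOPC-21 glands, and 2.07 after LTBR-Ig with genes at their bound. Nlrc5, the regulator of the class I genes, was at least 8.63-fold higher and differed by 4.23 log2, against 4.75 in MOPC-21 glands. The immunoproteasome subunit Psmb9 was at least 12.4-fold higher and the peptide transporter Tap1 at least 3.95-fold. B2m, the light chain of class I, read 10.84 to 12.32 at week 8 and 13.54 to 14.28 after LTBR-Ig, a difference of 2.07 log2 against 2.38.

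Interferon-response genes were higher than at week 8 in both the treated and the MOPC-21 glands. Of 16 tested, 15 were higher than at week 8 and Stat2 was undecided. The median difference from week 8 was 2.23 log2 with LTBR-Ig and 2.24 with MOPC-21, and the median of the direct differences between those groups was −0.54 log2. Of the 16 genes 0 were called between them in the limma test, 3 lay within 2-fold and 13 were undecided (2 were called lower without LTBR-Ig replicate 1), with 3 lower and 0 higher at an unadjusted p under 0.05. By array the list stood 1.74 to 2.80 log2 above the week 8 mean in treated glands and 1.87 to 2.73 in MOPC-21 glands. The week 8 arrays spread from −0.86 to 0.56 around their own mean. Under the posterior probability rule that the methods describe, 6 of the 16 remained called higher than at week 8.

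Gbp2, a guanylate-binding protein, read 4.86, 5.99, 3.31 and 5.74 at week 8 and 9.88, 9.40, 8.68 and 9.54 after LTBR-Ig (4.40 ± 0.49 log2, adjusted p = 1.6e-07), against 5.46 in MOPC-21 glands. Igtp, an immunity-related GTPase, read 4.43, 5.54, 4.12 and 5.90 and then 9.58, 9.24, 8.56 and 9.35, 18.1-fold higher (4.18 ± 0.44 log2, adjusted p = 6e-08), against 4.86. Both genes are known targets of interferon-gamma, and neither overlapped with week 8. Among genes best known as targets of type I interferon, the differences from week 8 with LTBR-Ig and with MOPC-21 were 2.38 and 2.15 log2 for Ifit3, 2.58 and 2.23 for Oas1a, 1.74 and 1.04 for Usp18, and 1.47 and 1.08 for Rsad2. In none of these was the direct difference between LTBR-Ig and MOPC-21 called, and its interval lay inside 2-fold for Rsad2 (−0.20 to 0.98) but not for Ifit3 (−0.71 to 1.18), Oas1a (−0.49 to 1.18) or Usp18 (−0.27 to 1.67). Each of these was larger with LTBR-Ig, whereas the list as a whole leaned the other way. Its median direct difference was −0.54 log2, with 3 lower and 0 higher at an unadjusted limma p under 0.05. Other type I targets of the list, such as Ifit1, Ifit2, Mx1 and Oasl2, are not given singly. The targets named therefore do not stand for type I targets as a set. The promoters of Gbp2, Igtp, Ifit3 and Rsad2 printed above each hold the response element core.

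**Figure D4:**
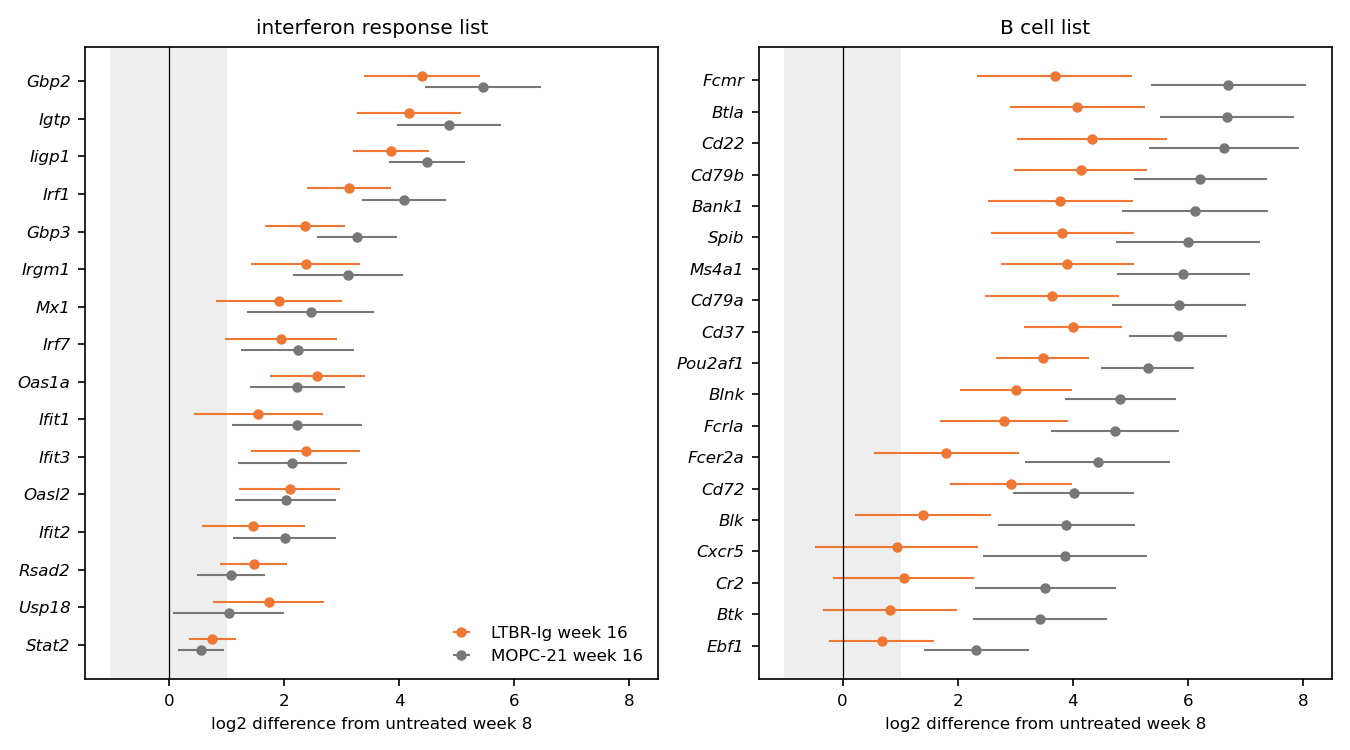
Log2 difference from week 8, with its 95% confidence interval from limma, for interferon-response and B-cell genes in LTBR-Ig and in MOPC-21 glands of week 16. The grey band spans 1 log2 on either side of 0. The B-cell medians are 3.48 and 5.30, and the interferon medians 2.23 and 2.24.

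Most genes of the inflammatory chemokines and their receptors were also above their week 8 level. Of 13 genes 9 were higher, Ccl3 was at the floor and 3 were undecided, with a median of 2.21 log2 against 3.37 (1.13 and 2.10 with genes at their bound). Cxcl9, an interferon-gamma-induced chemokine for T cells, read 3.13, 3.17, 3.16 and 3.36 at week 8 and 9.30, 8.80, 7.68 and 8.59 after LTBR-Ig. The arrays were at least 24.1-fold apart (5.39 ± 0.44 log2, adjusted p = 8.9e-10), and the MOPC-21 difference was 6.61 log2. Ccl8, a monocyte chemokine, was higher by 4.41 log2 against 6.01, Cxcl16 by 3.06 against 3.69, and Cxcl10 by 2.62 against 3.65. Ccl3 stood at 2.52 to 2.57 at week 8 and 2.59 to 3.59 after LTBR-Ig.

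Of the complement genes 5 of 10 were higher, 1 was within 2-fold and 4 were undecided, at a median of 1.26 log2 against 2.65 in MOPC-21 glands. The 3 C1q genes of the macrophage list are counted among these too.

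Among HEV genes, the adhesion genes Vcam1 and Icam1 were higher than at week 8 and Glycam1 was not. Of 10 HEV genes, Vcam1 and Icam1 were higher, Ackr1 and Nkx2-3 were within 2-fold, Glycam1 and Chst2 were at the floor, and 4 were undecided. Vcam1, an adhesion molecule that endothelium and lymphoid stroma display, read 3.99, 3.35, 3.29 and 4.33 at week 8 and 8.00, 7.34, 6.37 and 7.41 after LTBR-Ig. The difference was 11.6-fold (3.53 ± 0.43 log2, adjusted p = 5e-07), against 5.34 log2 in MOPC-21 glands, and no arrays overlapped. Icam1, the ligand of the integrin LFA-1, was at least 5.23-fold higher. Ackr1, an atypical chemokine receptor of venules, was 4.34 to 5.42 at week 8 and 4.34 to 4.74 after LTBR-Ig.

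Of 9 genes of blood endothelium none was higher in the limma test, with 1 at an unadjusted p under 0.05. Tek, the angiopoietin receptor, and the junction protein Esam were lower, by −1.17 and −1.01 log2, and 4 genes, among them Kdr and Pecam1, were within 2-fold. The call of Esam was lost in 5 of the alternative settings, among them without LTBR-Ig replicate 2 and without replicate 3. Pecam1, which leukocytes also carry, was higher in MOPC-21 glands by 1.57 log2 and at 0.20 log2 after LTBR-Ig. All 8 smooth muscle, pericyte and myoepithelial genes and all 3 nerve genes were within 2-fold, against 75.1% of all genes tested. Clu, a secreted chaperone that follicular dendritic cells and epithelium make, was higher by 2.40 log2 after LTBR-Ig, against 3.28.

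Several collagen and matrix transcripts were lower than at week 8. Of 18 fibroblast and matrix genes 7 were lower, 5 were within 2-fold, 6 were undecided and 0 were higher, with 1 higher at an unadjusted limma p under 0.05. Col1a1, a chain of type I collagen, read 8.40, 8.80, 7.81 and 9.06 at week 8 and 6.69, 6.12, 5.46 and 5.96 after LTBR-Ig, 5.5-fold lower (−2.46 ± 0.40 log2, adjusted p = 3.4e-05). MOPC-21 glands were lower by the same order, at −2.81 log2, and the difference between LTBR-Ig and MOPC-21 was 0.35 log2 (adjusted p = 0.53). Sparc, a collagen-binding glycoprotein, differed by −1.83 log2 against −1.89, Col3a1 by −1.79 against −1.89, and Col1a2 by −1.57 against −1.50. In Col1a1, as in Fdft1 further on, every week 8 array lay above all 27 later lacrimal arrays. The proteoglycan Dcn, at 0.01 log2, and the fibroblast receptors Pdgfra and Pdgfrb were within 2-fold. By array the list stood at 0.13 log2 from the week 8 mean in LTBR-Ig replicate 1, −0.69 in replicate 2 and −0.66 in replicate 4, with replicate 3 the lowest. The count of 7 lower genes was 4 without LTBR-Ig replicate 3, 4 without the arrays with Amy1 above 8, and 4 under the posterior probability rule. Among 3 adipocyte genes, Lpl was lower by −1.11 log2 with overlapping arrays, a call lost in 4 of the alternative settings, among them without LTBR-Ig replicate 2 and without week 8 replicate 1, and Adipoq and Fabp4 were undecided.

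Tear proteins such as lactoperoxidase are made by the acini. Of 15 tear protein and acinar genes 8 were within 2-fold, against 75.1% of all genes tested, 4 were undecided, Dmbt1 and Mup5 were lower and Lyz1 was higher, and the median of −0.09 log2 compares with −0.57 in MOPC-21 glands, where 6 genes were lower. By array the list lay at −0.26 to −0.18 in treated and −0.93 to −0.42 in MOPC-21 glands. Lpo, the lactoperoxidase of tears, read 15.36, 15.55, 15.46 and 15.51 at week 8 and 15.33, 15.50, 15.40 and 15.49 after LTBR-Ig, with full overlap. Its difference was −0.04 log2, with an interval of −0.38 to 0.30. Pigr, which carries IgA across the epithelium, differed by 0.01 log2, Pip, a tear glycoprotein, by −0.03, and the lactoferrin gene Ltf by 0.35.

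Some acinar genes stood below week 8 without reaching a call. Aqp5, the apical water channel of the acinus, read 10.62, 10.51, 10.72 and 10.67 at week 8 and 9.93, 9.85, 10.11 and 10.17 after LTBR-Ig. All 4 treated arrays lay below all 4 week 8 arrays, as was so for 25.7% of all genes tested, and the interval of −0.95 to −0.28 log2 lay inside 2-fold. MOPC-21 glands were lower by −1.11 log2, which passed the test. Bhlha15, the transcription factor of secretory cell architecture known as Mist1, was at −0.77 log2 (undecided) against −1.25, and Car6, the secreted carbonic anhydrase, at −1.07 (undecided) against −2.67. A second probe set of Bhlha15 was called lower. Mup5, a major urinary protein, read 11.46, 11.28, 12.08 and 12.08 at week 8 and 6.22, 7.79, 8.51 and 8.70 after LTBR-Ig, 15.1-fold lower (−3.92 ± 0.87 log2, adjusted p = 0.001) against −5.57 log2 in MOPC-21 glands. Dmbt1, a mucosal scavenger receptor, was lower by −1.74 log2 against −1.39. Lyz1 shares sequence with the macrophage gene Lyz2, and the 2 were higher by 2.41 and 2.35 log2.

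Of 8 fluid secretion genes 7 were within 2-fold, against 75.1% of all genes tested. The bicarbonate cotransporter Slc4a4 was lower by −1.04 log2, a call lost in 5 of the alternative settings, among them without LTBR-Ig replicate 1. The counts of the next lists are to be read beside the same share. Of 12 genes of secretory signalling and exocytosis 9 were within 2-fold, 1 was undecided, and Chrm1 and Itpr2 were higher. Chrm1, a muscarinic acetylcholine receptor, read 3.80, 3.86, 3.98 and 3.50 at week 8 and 4.98, 5.34, 5.56 and 5.49 after LTBR-Ig, at least 2.53-fold higher (adjusted p = 2.3e-07). Among 13 ductal and general epithelial genes 11 were within 2-fold, including Epcam, Cdh1, Krt8 and Krt18. The epithelial transcription factors Elf5 and Elf3 were lower by −1.15 and −1.08 log2, and the call of Elf3 was lost in 5 of the alternative settings, among them without LTBR-Ig replicates 1 or 2.

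Among the lists grouped as epithelial, that of antimicrobial, acute-phase and antiprotease genes had the largest median difference from week 8. Bulk RNA does not show which cells carried these transcripts. Of 9 tested 6 were higher, Reg3g was at the floor and 2 were undecided, at a median of 1.55 log2 against 3.87 in MOPC-21 glands (1.03 and 3.08 with genes at their bound). Slpi, the secretory leukocyte protease inhibitor, read 3.95, 3.47, 3.38 and 4.31 at week 8 and 9.58, 8.59, 7.78 and 9.02 after LTBR-Ig, 31.3-fold higher (4.97 ± 0.33 log2, adjusted p = 1.3e-11), against 6.08 log2. Serpina1b, an alpha-1-antitrypsin, was nearer to week 8. It read 3.27, 4.84, 3.97 and 4.72 at week 8, 6.95, 5.95, 5.22 and 5.87 after LTBR-Ig, and 9.26, 9.30, 10.40 and 9.49 after MOPC-21. The difference from week 8 was 1.80 ± 0.41 log2 (adjusted p = 0.0013) against 5.42. LTBR-Ig glands were 12.3-fold below MOPC-21 glands (adjusted p = 1.4e-05), a limma call kept without each LTBR-Ig array in turn. Serpina1b was named with earlier results of these data known, so this p-value and the kept calls are no separate test. Ubd, a ubiquitin-like protein induced by cytokines, and Gp2, a receptor for bacteria on specialised epithelium, were at least 2.05-fold and 1.31-fold higher.

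Of 15 cathepsins and cystatins 6 were higher and 9 were within 2-fold, against 7.39% and 75.1% of all genes tested. Ctss, the protease that trims the invariant chain in antigen-presenting cells, was higher by 3.91 ± 0.39 log2 (adjusted p = 2.1e-08), against 4.73 in MOPC-21 glands. Of 19 genes of endoplasmic reticulum folding 17 were within 2-fold, 1 was undecided and Ddit3 was higher by 1.05 log2, a call lost without LTBR-Ig replicate 3. Hspa5, the main chaperone of that compartment, was at −0.31 log2 against −0.65. Of 16 genes of cholesterol and fatty acid synthesis, Fdft1, Sqle and Cyp51 were lower, Apoe was higher, 9 were within 2-fold and 3 were undecided. Fdft1, the squalene synthase, read 7.38, 7.52, 7.93 and 7.64 at week 8 and 5.61, 4.80, 5.36 and 5.24 after LTBR-Ig (−2.37 ± 0.21 log2, adjusted p = 3.9e-09), against −2.18 in MOPC-21 glands. The call of Cyp51 was lost without LTBR-Ig replicate 2.

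The cell cycle genes were undecided for the most part. Of 10 tested 0 were called in either direction by limma, with 1 higher at an unadjusted p under 0.05, and 9 were undecided, whereas 7 were higher in MOPC-21 glands. Mki67, the proliferation antigen Ki-67, read 7.75, 6.82, 5.91 and 5.65 at week 8 and 7.35, 6.93, 6.18 and 7.38 after LTBR-Ig. The week 8 arrays spread over more than the difference of 0.43 log2. Leaving out 1 array gave 0 to 3 called genes.

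Salivary gland transcripts were higher after LTBR-Ig than at week 8 or after MOPC-21. Of 22 tested 16 were higher than at week 8 and 6 were undecided, with a median of 4.71 log2 against 0.20 in MOPC-21 and 1.61 in untreated glands of week 16. With genes at their bound the median was 3.37 after LTBR-Ig. By array the untreated week 16 glands stood 3.61, 1.72, −0.06 and −0.25 log2 from the week 8 mean, and the first of them lay above LTBR-Ig replicate 4 at 2.95. Against MOPC-21, 18 were higher, 11 without LTBR-Ig replicate 3 and 5 without the arrays with Amy1 above 8. The summed level of the list, on a log2 scale, was 11.99 to 12.63 at week 8, 14.25 to 16.58 after LTBR-Ig, 8.99 to 12.00 after MOPC-21 and 9.80 to 16.29 in untreated glands of week 16. At week 8, 15 of the 22 were at or below the floor in all 4 arrays, among them Amy1, Bpifa2 and Klk1. Salivary glands lie near the exorbital lacrimal gland, and whether other tissue was present was not tested.

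Within the list the treated arrays split. Crisp3, a secretory protein of salivary and lacrimal glands, read 4.97, 3.16, 3.50 and 3.38 at week 8, 13.45, 11.32, 12.01 and 9.58 after LTBR-Ig, and 5.17, 8.68, 3.23 and 3.41 after MOPC-21. All 4 LTBR-Ig arrays were above all others of these groups, by 229-fold from week 8 (7.84 ± 1.30 log2, adjusted p = 4.1e-05) and 6.47 log2 from MOPC-21 (adjusted p = 0.0054). Only replicate 1 of the week 8 arrays was above the floor, so this fold also depends on values under it. Crisp3 was named with earlier results of these data known, so its limma p-values are no separate test. The kallikreins Klk1b16 and Klk1 were at least 59.2-fold and 58.0-fold higher than at week 8, and Prol1 was higher by 7.19 log2. In these genes replicate 1, whose Amy1 lay below the floor, was the highest array and replicate 4 the lowest. The parotid genes Amy1 and Bpifa2 were instead high only in replicates 3 and 4, at 15.08 and 12.22 for Amy1 and 14.46 and 12.92 for Bpifa2, and were undecided.

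Mucl1, a mucin-like secretory protein, took yet another course. It read 11.37, 11.62, 12.33 and 11.89 at week 8, 14.59, 12.23, 12.72 and 10.39 after LTBR-Ig, and 5.47, 9.59, 3.75 and 3.67 after MOPC-21. LTBR-Ig and week 8 arrays overlapped (0.68 ± 1.39 log2, undecided), while every MOPC-21 array was below every LTBR-Ig array, by 6.86 log2 (adjusted p = 0.0057). Mucl1 too was named with earlier results of these data known, so this limma p-value is no separate test. LTBR-Ig replicate 1 was above the week 8 range and replicate 4 below it.

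The largest falls separated week 8 from every later time. For the 15 genes that fell most, every week 8 array lay above every one of the 27 later lacrimal arrays, whatever the treatment. The share of all genes tested with such a split was not counted. Their differences from week 8 reached −5.57 log2 in MOPC-21 glands and −4.90 in untreated glands of week 16. Only 1 of the 15, B4galt1, was called between LTBR-Ig and MOPC-21, and that call was lost without LTBR-Ig replicate 2, 3 or 4. Cyp2b19, a cytochrome P450 that makes fatty acid epoxides, read 7.77, 7.53, 8.47 and 7.96 at week 8 and 2.92, 2.91, 3.21 and 2.80 after LTBR-Ig. LTBR-Ig glands were at least 15.3-fold lower (−4.97 ± 0.22 log2, adjusted p = 6.3e-15), against −4.84 in MOPC-21 glands. B4galt1, a galactosyltransferase, was 16.2-fold lower (−4.02 ± 0.39 log2), against −2.89, and Sult1d1, a sulfotransferase, lower by −3.63 log2 against −4.13. Igfbp3, a binding protein of insulin-like growth factors, was at least 3.95-fold lower.

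Nfil3 and Arntl, both transcription factors of the circadian clock circuit, were also among the 15 largest falls, Nfil3 by −3.11 log2 and Arntl at least 4.14-fold lower. Further clock genes were therefore read, and were chosen after these values were seen. Of 17 listed 14 were tested, 6 were higher and 2 lower than at week 8, against 7.39% and 2.42% of all genes tested. In Nfil3, Arntl, Dbp, Per3, Nr1d2 and Bhlhe40 the week 8 arrays lay apart from all 27 later arrays. The share of all genes tested that did so was not counted, so this is not read as particular to clock genes. Dbp, an output gene of the clock, read 6.05, 6.53, 5.30 and 6.22 at week 8 and 10.24, 10.11, 10.38 and 10.00 after LTBR-Ig (4.16 ± 0.22 log2, adjusted p = 1.4e-13), against 3.68 in MOPC-21 glands and 4.20 in untreated glands of week 16. Per3 and Nr1d2 were higher by 2.24 and 1.51 log2, while Clock, Per1, Per2 and Cry1 were within 2-fold. The hour at which glands were collected is not given in the sources used here. Age, and any difference in handling between the week 8 mice and all later mice, cannot be told apart in these genes. The same week 8 arrays are the reference of every difference from week 8 given here, so this limit holds for all of them.

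**Figure D5:**
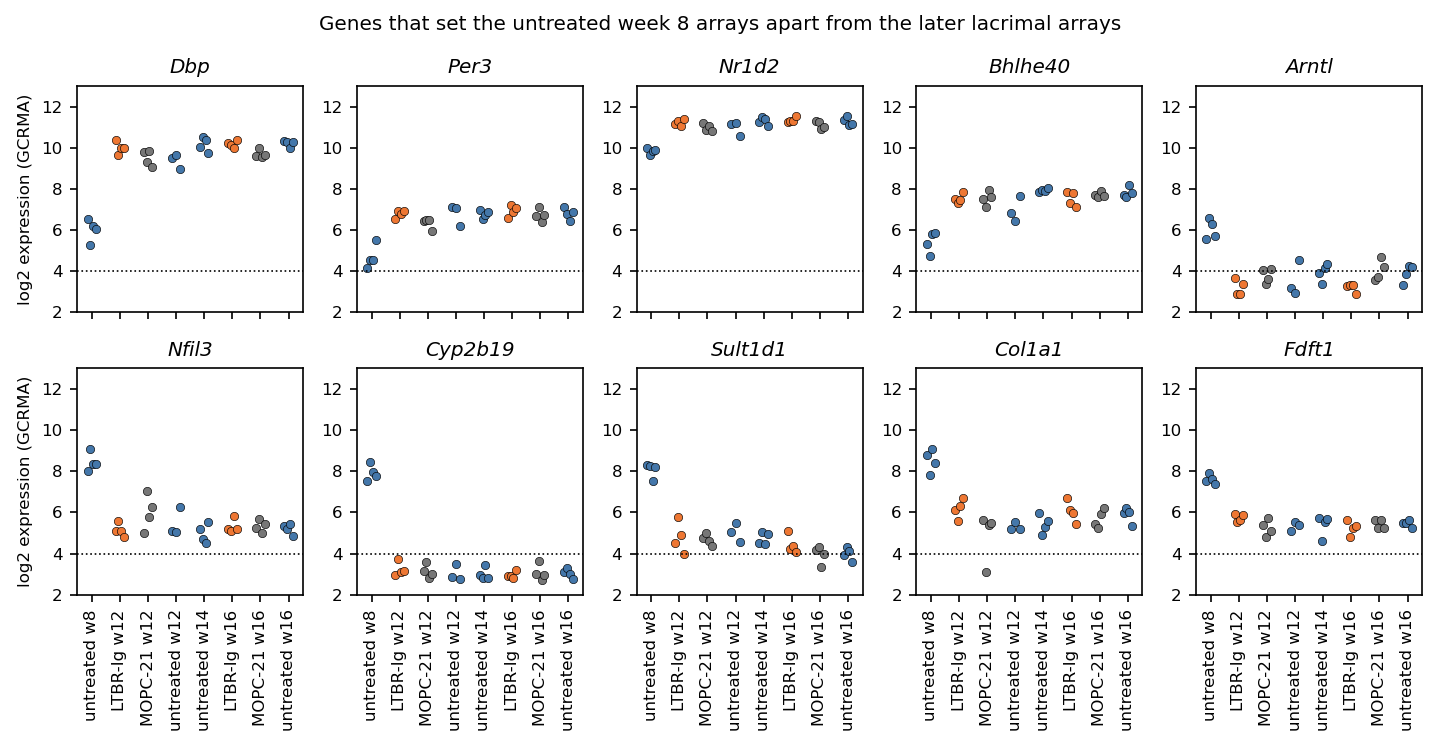
Log2 expression of 10 genes on all 31 lacrimal arrays, by group. Points are arrays. In Cyp2b19 the 4 week 8 arrays at 7.53 to 8.47 lie above all 27 later arrays, and in Dbp at 5.30 to 6.53 they lie below all of them.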

How the data were processed

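Expression was measured on Affymetrix whole-genome mouse arrays, labelled with NuGEN Ovation reagents after Trizol extraction. The log2 values were used as the authors deposited them, after GCRMA background correction and normalization over all 61 arrays. The GCRMA version is not given in the sources used here. No batch or scan label was used. The depth of an array is not a count, and the number of arrays limits the precision.

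The 45101 probe sets were named from the platform annotation, with 1 symbol for 34958, several for 932 and none for 9211. A probe set was tested if, in any lacrimal group, 2 or more arrays exceeded 4, which left 20077. All 31 lacrimal arrays entered 1 limma 3.58.1 fit (R 4.3.3) with a mean for each of 8 groups, moderated with a trend, and p-values were Benjamini-Hochberg adjusted over all probe sets. The fit was tested on simulated data. Where several probe sets carried the symbol of 1 gene alone, the one brightest on average over these arrays stood for it. Several probe sets disagreed on the call for Klk1, Cxcl9, Iglv1, Il7r, Icos, Fscn1, H2-Aa, Psmb8, Vcam1, Slc4a4, Ddit3, Coro1a and Bhlha15.

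Groups came from the sample titles. Named genes were the 15 largest non-overlapping changes each way, up to 4 called members of each list each way, the 12 genes highest in MOPC-21 glands among those back at week 8, the 12 highest among those not back, and a fixed set of 29. The groups, lists and genes were chosen with earlier results of these data known, so the p-values of named genes are no separate test of their differences. Clock genes other than Nfil3 and Arntl, and other genes named to account for a list, were chosen after their values were seen. Alternatives changed the filter, scaling, array weights, trend, arrays fitted, call rule and replicate block, and left out each array. Genes without a single-symbol probe set, such as Ccl19 and Ccl21a, and those under the filter, such as Madcam1 and Chrm3, were not analysed here.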

Additional observations from a re-analysis of the deposited data

Results flagged for a closer look

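In 9 of 256 sets of 4 arrays tested (3.52%), 1 array lay far from the other 3 by Dixon's criterion, which picks out about 5% of sets by chance. Among genes these were Jchain in LTBR-Ig replicate 3 at 11.0124 log2, Sult1d1 in week 8 replicate 4 at 7.5397, Nfil3 in LTBR-Ig replicate 4 at 5.8363, Mia in LTBR-Ig replicate 4 at 4.9393, Cd79b in week 8 replicate 4 at 4.4762 and Ms4a1 in the same array at 4.6519. Among list medians, taken as log2 over the week 8 mean, they were the inflammatory chemokines in week 8 replicate 2 at 0.1924, the nerve genes in week 8 replicate 4 at −0.1297 and the fluid secretion genes in week 8 replicate 3 at 0.1181. The higher B-cell values of Cd79b and Ms4a1 in week 8 replicate 4 raise the week 8 mean of both genes.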

How the results depend on the processing

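Against week 8, 1216 probe sets were higher, 506 lower and 14956 within 2-fold. The posterior probability rule of the methods gave 570 higher and 314 lower, and a filter at log2 6, which tests fewer probe sets, gave 336 lower and 9213 within 2-fold. Leaving out each array in turn gave 979 to 1367 higher, 480 to 561 lower and 14331 to 14765 within 2-fold. With the replicate number as a block the counts were 1228, 506 and 14973. Samples of the same number did not deviate together (r = −0.00, 0.02, 0.17 and −0.03), so the numbers were not treated as pairs, and no named call was lost. No named gene reversed direction under any alternative run. Calls of named genes were lost most often under the posterior probability rule (23 of 134 genes) and without LTBR-Ig replicate 1 (7 genes). The posterior probability rule also moved the counts of higher genes in the T-cell list from 9 to 4, dendritic cells from 6 to 2, interferon response from 15 to 6, homeostatic chemokines from 8 to 3, cytotoxic lymphocytes from 4 to 2, complement from 5 to 3, antimicrobial genes from 6 to 3, cathepsins from 6 to 3 and salivary transcripts from 16 to 6, and of lower fibroblast genes from 7 to 4, and the cause was not tested. The filter at log2 6 moved higher cytotoxic genes from 4 to 2 and smooth muscle genes within 2-fold from 8 to 5, since it tests fewer. Age, treatment and any difference in handling cannot be told apart against week 8, and values at or below log2 4 carry no order.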
